A study of Homo sapiens with 8 samples.

Results

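The EGF family ligands are EGF, TGFA, AREG, EREG, HBEGF, BTC, EPGN and NRG1. The 8 members were taken by name, and a member was read where the array annotation gave a probe set with its symbol and no other, using the brightest such probe set over the 8 arrays. By this rule 7 of the 8 ligands were read, out of 18404 genes in all. AREG had no such probe set and was not analysed here. NRG1 had 2 probe sets and the other ligands 1 each.

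The study used 2 human lines, NCI-H2009 and NCI-H1299 (H2009 and H1299 for short), which the series description calls lung adenocarcinoma lines. Each line was infected with lentivirus carrying 1 of 4 short hairpin RNAs. Controls carried a hairpin against GFP or against luciferase (LUC), genes that human cells lack, and the knockdown cells carried 1 of 2 hairpins against PTK7, here PTK7-1 and PTK7-2. PTK7 encodes a pseudokinase receptor known for roles in Wnt signalling and in planar polarity of epithelia. All cells, controls included, therefore went through infection for 2 days and puromycin selection for 2 days, and RNA was taken on day 4. Each line and hairpin gave 1 array, so 4 groups of 2 arrays were formed in which the 2 arrays carry different hairpins, and since the labels name no repeat cultures the p-values speak only of the variation among these 8 arrays, which may be technical. In whole-culture RNA, fewer cells that express a gene and less RNA per cell cannot be told apart.

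Ligands of the EGF family are made as membrane-anchored precursors, and proteases of the ADAM family cut them loose to act on the same cell or on neighbouring cells. EGF, TGFA, AREG and EPGN bind EGFR, HBEGF, EREG and BTC bind EGFR and ERBB4, and NRG1 binds ERBB3 and ERBB4. Receptors of the family pair with each other, ERBB2 being the partner without a ligand of its own, and signal through RAS and ERK, among other routes. Several of the ligand genes are induced by ERK signalling, which closes a positive loop. In the lung the family is known for epithelial growth and repair and for its part in adenocarcinoma.

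The ligands whose values differed most between PTK7 and control hairpins, in H2009 and averaged over the lines, were TGFA, EREG and HBEGF. In H1299 alone the NRG1 difference was the largest in size. The bases just before their transcription starts are shown for reading beside the values. They are the 250 bases upstream of each start, from RefSeq on build GRCh38.p14, printed 5′ to 3′ on the gene's strand. Capitals mark matches, on either strand, to any of 6 motifs. The letters searched for AP-1 were TGANTCA, and those for a cyclic AMP response element (CRE) were TGACGTCA. For ETS factors the search used CCGGAAG, and for TEAD factors, the partners of YAP and TAZ, it used GGAATG. A GC box was read as GGGCGG and a TATA box as TATAAA. Adjoining or overlapping matches run together in capitals. TGFA has a further start in the same table, not printed, which held no match.
TGFA, chr2:70553827-70554076, minus strand: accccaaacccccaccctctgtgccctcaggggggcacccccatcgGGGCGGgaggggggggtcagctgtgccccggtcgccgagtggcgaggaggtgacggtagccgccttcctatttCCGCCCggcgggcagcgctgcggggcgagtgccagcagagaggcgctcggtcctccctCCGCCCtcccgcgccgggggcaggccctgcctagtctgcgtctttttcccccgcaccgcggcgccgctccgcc
EREG, chr4:74364895-74365144, plus strand: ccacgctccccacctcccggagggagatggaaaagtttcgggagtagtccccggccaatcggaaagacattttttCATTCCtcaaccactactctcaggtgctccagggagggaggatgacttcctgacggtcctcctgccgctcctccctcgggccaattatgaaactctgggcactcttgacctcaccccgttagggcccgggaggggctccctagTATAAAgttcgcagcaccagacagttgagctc
HBEGF, chr5:140346604-140346853, minus strand: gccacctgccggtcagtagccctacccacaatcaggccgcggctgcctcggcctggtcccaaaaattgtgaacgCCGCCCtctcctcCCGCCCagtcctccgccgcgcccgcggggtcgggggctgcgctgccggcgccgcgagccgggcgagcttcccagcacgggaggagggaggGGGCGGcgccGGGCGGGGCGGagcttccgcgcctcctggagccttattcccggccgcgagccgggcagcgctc

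The stretch before HBEGF held 5 GC boxes and that before TGFA held 3. EREG had none, but had a TATA match starting 32 bases before the start and a TEAD match starting 175 bases before it. Among all 35116 RefSeq starts read over the same length, 42.6% held a GC box, 10.7% a TATA match and 11.9% a TEAD match. No AP-1, CRE or ETS match lay in these stretches, against shares of 6.57%, 1.65% and 8.52% over all starts. In base composition 75.6% of the TGFA stretch, 58% of the EREG stretch and 76.4% of the HBEGF stretch was G or C. The matches describe letters only.

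Values are log2 expression values from RMA, on which 1 unit is a doubling and differences of dim genes are compressed. Array medians over all probe sets lay between 5.31 and 5.41, and r within a group ran from 0.981 to 0.997. In H1299 the PTK7 log2 value was 5.73 (GFP) and 6.03 (LUC), against 5.63 (PTK7-1) and 5.53 (PTK7-2). In H2009 it was 6.64, 6.86, 5.63 and 5.94 in that order. Both PTK7 arrays lay below both control arrays in each line, by 0.30 ± 0.17 (standard error) in H1299 and 0.96 ± 0.17 in H2009, and neither difference passed (limma adjusted p = 0.804 and 0.222). The labelled cell type was set against marker genes. In H2009, EPCAM stood between 11.17 and 11.30 and CDH1 between 11.17 and 11.43. In H1299, EPCAM stood between 3.32 and 3.58 and CDH1 between 3.92 and 4.19, so these defining epithelial markers were near the bottom of the scale there, while KRT8 and KRT18 read between 8.68 and 11.61. Of 5 lung lineage genes, NKX2-1 read 6.89 to 8.36 in H2009 and 4.96 to 5.64 in H1299, NAPSA was higher in H2009 under control hairpins (-1.23, H1299 minus H2009), and the surfactant genes SFTPB (3.94 to 4.37) and SFTPC (4.04 to 4.43) and SFTA2 (4.19 to 4.73) read low in both lines. Of other cell types, the defining genes PTPRC of leukocytes (2.78 to 3.01), DCN of fibroblasts (2.85 to 3.07) and VWF of endothelium (3.45 to 3.74) were low on all 8 arrays. Members of the same lists that read higher were CD68 (9.59 to 10.48 in H1299, 7.76 to 8.63 in H2009), COL1A1 (6.09 to 6.93 over both lines) and CLDN5 (5.76 to 6.24).

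**Figure D1:**
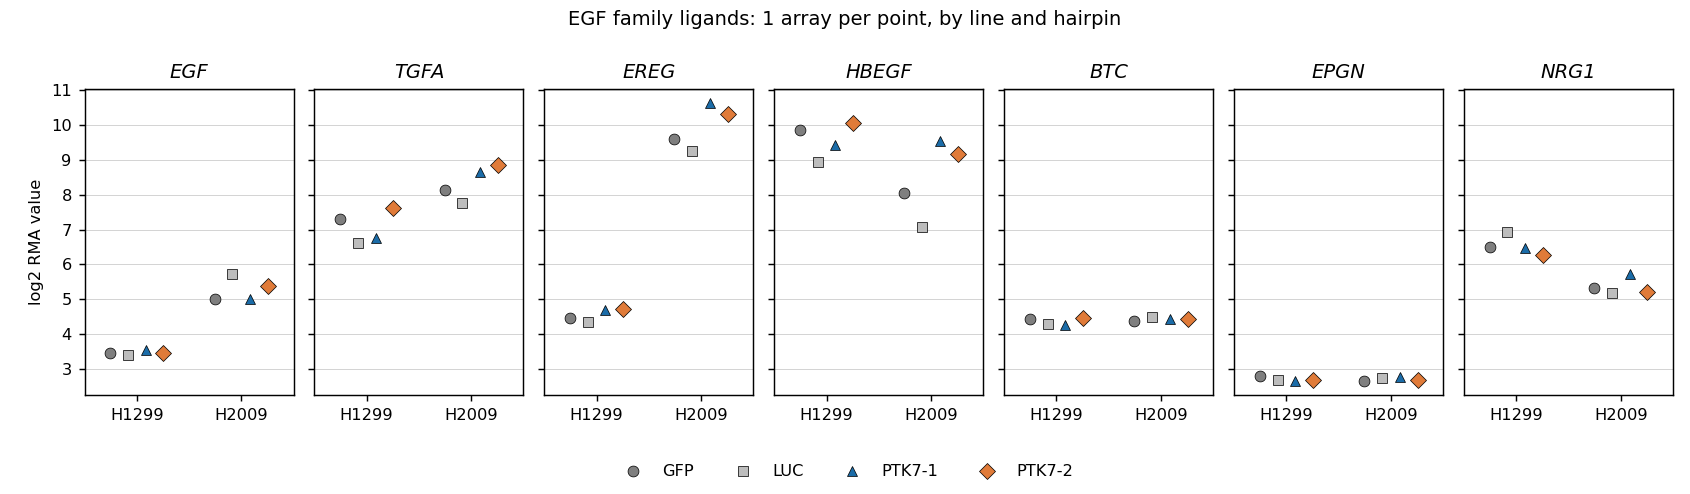
Log2 RMA value (vertical axis) of each of the 7 ligands on each of the 8 arrays, by line (horizontal axis) and hairpin (colour and shape). EREG separates the lines most, TGFA, EREG and HBEGF are higher with both PTK7 hairpins than with both control hairpins in H2009, and BTC and EPGN are flat; heights are not comparable between genes, which are read by different probes.

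The first comparison asks how the lines differ in ligand expression without the knockdown. EREG and EGF were higher in H2009 and HBEGF and NRG1 were higher in H1299, all past the threshold of adjusted p under 0.05. Over all genes 24.8% passed in this comparison, against 4 of 7 ligands. The median H1299 minus H2009 difference of the ligands was -0.06, against 0.06 over all genes.

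EREG encodes epiregulin. Its log2 value in H2009 was 9.60 with GFP and 9.26 with LUC, and in H1299 it was 4.46 with GFP and 4.34 with LUC. The control means were 9.43 ± 0.24 (SD, n = 2) in H2009 and 4.40 ± 0.08 (SD, n = 2) in H1299. The H1299 minus H2009 difference was -5.03 ± 0.17 (standard error of the fit), so the signal was 32.7-fold higher in H2009 (adjusted p = 3.81e-06). It ranked 46 of 18404 genes by p in this comparison. The EREG values in H1299 were low, and RMA compresses differences of dim probe sets, so the fold value is approximate.

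EGF, the ligand that gave the family its name, stood at 5.01 with GFP and 5.73 with LUC in H2009. In H1299 the 2 values were 3.45 and 3.40. All 4 H1299 arrays lay between 3.40 and 3.54 and all 4 H2009 arrays between 5.01 and 5.73, without overlap. The difference under control hairpins was -1.94 ± 0.24, or 3.85-fold higher in H2009 (adjusted p = 0.00133). The EGF values in H1299 were low too, so this fold value is also approximate.

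HBEGF encodes the heparin-binding member, whose precursor is also the receptor of diphtheria toxin. Its log2 value in H1299 was 9.86 with GFP and 8.94 with LUC, and in H2009 it was 8.04 with GFP and 7.08 with LUC. In each line the GFP array read almost 1 unit above the LUC array, and the lines did not overlap under control hairpins. The difference was 1.84 ± 0.42, or 3.58-fold higher in H1299 (adjusted p = 0.0170). It no longer passed without the GFP array of H1299 (1.38, adjusted p = 0.101) or without the LUC array of H2009 (1.36, adjusted p = 0.112). With PTK7 hairpins the lines overlapped, since H1299 had 9.44 and 10.05 and H2009 had 9.56 and 9.17.

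NRG1 encodes neuregulin 1. Its brighter probe set read 6.51 with GFP and 6.93 with LUC in H1299, against 5.31 and 5.17 in H2009. The difference was 1.48 ± 0.21, or 2.79-fold higher in H1299 (adjusted p = 0.0027). The other NRG1 probe set gave 2.01 in the same direction when every probe set was tested on its own (adjusted p = 0.0111).

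TGFA encodes transforming growth factor alpha. Its control arrays read 7.31 (GFP) and 6.61 (LUC) in H1299, and 8.13 and 7.78 in H2009. The groups did not overlap, yet the difference of -0.99 ± 0.33 missed the threshold (adjusted p = 0.0696). With the hairpin as a block, which takes out what a hairpin does alike in both lines, it passed (adjusted p = 0.00884), as did 31.3% of all genes in that fit. With 1 array left out it passed in 2 of 8 cases, without either PTK7 array of H1299 (adjusted p = 0.0268 for each). Without the LUC array of H1299 it was -0.64 (adjusted p = 0.334), and without the GFP array of H1299, at -1.34, it still did not pass.

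BTC encodes betacellulin and EPGN encodes epigen. BTC stayed between 4.26 and 4.48 over all 8 arrays and EPGN between 2.64 and 2.80. Their line differences were -0.06 ± 0.13 and 0.05 ± 0.12, and neither passed (adjusted p = 0.813 and 0.814). Detection calls were not used, so whether these low values hold any expression was not tested.

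The epithelial markers moved with the same comparison. All 6 were lower in H1299, 5 of them past the threshold that 24.8% of all genes passed, and their mean level was 6.22 to 6.64 on the H1299 control arrays and 11.24 to 11.26 on those of H2009. All 4 mesenchymal markers passed as well, CDH2, VIM (2.58) and ZEB1 (3.46) being higher in H1299 and FN1 (-3.29) lower, and so did CD68 (2.27). The part of these markers in the ligand differences was not tested.

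The second comparison asks what the ligands do when PTK7 hairpins replace control hairpins, and it is shown in the plot of knockdown differences. HBEGF, EREG and TGFA had higher mean values with PTK7 hairpins in both lines, most of all in H2009, where HBEGF stood 3.50-fold, EREG 2.06-fold and TGFA 1.75-fold above the control mean. EGF, BTC, EPGN and NRG1 had averaged differences between -0.07 and 0.01. None of the 7 ligands passed the threshold averaged over the lines (0% of all genes called), in H1299 (0.00543% called) or in H2009 (0% called). At an unadjusted p under 0.05, 2 of 7 ligands stood out in the averaged comparison, against 9.88% of all genes, and 3 of 7 in H2009, against 7.98% of all genes. The median averaged difference of the ligands was 0.01, against 0.02 over all genes.

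HBEGF in H2009 had a log2 value of 8.04 (GFP) and 7.08 (LUC) under control hairpins and 9.56 (PTK7-1) and 9.17 (PTK7-2) under knockdown. Both PTK7 arrays lay more than 1 unit above the higher control array. The H2009 difference was 1.81 ± 0.42 (adjusted p = 0.336), and it was 1.33 without the LUC array and 2.29 without the GFP array. In H1299 HBEGF had 9.86 (GFP) and 8.94 (LUC) under control hairpins and 9.44 (PTK7-1) and 10.05 (PTK7-2) under knockdown. There the groups overlapped, with PTK7-1 between the controls, and the difference was 0.34 ± 0.42 (adjusted p = 0.964). Without the LUC array it turned to -0.12, and without the GFP array it was 0.81. The averaged difference of 1.07 ± 0.29 did not pass (adjusted p = 0.293), but passed with the hairpin as a block (standard error 0.16, adjusted p = 0.0492), a fit that called 0.810% of all genes and refers to these 4 hairpins only. With the hairpin as a random effect it did not pass (adjusted p = 0.416).

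EREG was the ligand whose PTK7 arrays lay above the control arrays in each line. In H2009 it stood at 9.60 (GFP) and 9.26 (LUC) under control hairpins and 10.64 (PTK7-1) and 10.31 (PTK7-2) under knockdown. In H1299 it stood at 4.46 (GFP) and 4.34 (LUC) under control hairpins and 4.69 (PTK7-1) and 4.72 (PTK7-2) under knockdown. Such a separation upward in both lines was seen for 1 of 7 ligands and for 4.93% of all genes. The 4 H1299 arrays spanned only 0.38 log2 units, at a level close to that of BTC (4.26 to 4.48 over all arrays). Whether these low H1299 values hold any EREG expression was not tested. The differences were 1.04 ± 0.17 in H2009 (adjusted p = 0.215) and 0.31 ± 0.17 in H1299 (adjusted p = 0.800). The averaged difference was 0.68 ± 0.12 (adjusted p = 0.182, and 0.0513 once hairpin was fitted as a block). By p it ranked 68 of 18404 genes in the averaged comparison and 35 in H2009.

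TGFA in H2009 had a log2 value of 8.13 (GFP) and 7.78 (LUC) under control hairpins and 8.66 (PTK7-1) and 8.86 (PTK7-2) under knockdown, without overlap. The difference there was 0.81 ± 0.33 (adjusted p = 0.614). In H1299 TGFA had 7.31 (GFP) and 6.61 (LUC) under control hairpins and 6.76 (PTK7-1) and 7.61 (PTK7-2) under knockdown, so the groups overlapped, and only PTK7-2 exceeded both controls. The H1299 difference of 0.23 ± 0.33 (adjusted p = 0.978) turned to -0.20 without the PTK7-2 array and was 0.65 without the PTK7-1 array. Averaged over the lines it was 0.52 ± 0.23 (adjusted p = 0.534), with a value of 0.30 without PTK7-2 in H1299.

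NRG1 read 6.51 (GFP) and 6.93 (LUC) under control hairpins and 6.46 (PTK7-1) and 6.27 (PTK7-2) under knockdown in H1299, where both PTK7 arrays lay below both control arrays. In H2009 it read 5.31, 5.17, 5.71 and 5.21 in the same order of hairpins, and the groups overlapped. The differences were -0.36 ± 0.21 and 0.22 ± 0.21 (adjusted p = 0.838 and 0.811). Leaving out GFP made the H1299 value -0.57 and leaving out LUC made it -0.15, and the H2009 value was -0.029 without the PTK7-1 array. The other NRG1 probe set did not separate the groups in H1299, where it read 6.47 (GFP) and 6.58 (LUC) under control hairpins and 5.89 (PTK7-1) and 7.03 (PTK7-2) under knockdown. The 2 probe sets also differed in sign between PTK7-1 and PTK7-2, at 0.35 for the brighter one and -0.40 for the other, so the NRG1 values with single hairpins depend on the probe set.

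EGF in H2009 read 5.01 (GFP) and 5.73 (LUC) under control hairpins and 5.01 (PTK7-1) and 5.37 (PTK7-2) under knockdown, and the groups overlapped. Its difference was -0.18 ± 0.24 in H2009 and 0.08 ± 0.24 in H1299 (adjusted p = 0.863 and 1.00). For BTC the differences were 0.01 ± 0.13 and 0.00 ± 0.13 in H2009 and H1299, and for EPGN 0.03 ± 0.12 and -0.08 ± 0.12.

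Counted over the ligands, 3 of 7 had both PTK7 arrays above both control arrays in H2009 (HBEGF, EREG and TGFA), against 26.0% of all genes, and 0 of 7 had both below, against 18.9%. In H1299, 2 of 7 were separated upward (EREG and EGF), against 15.6% of all genes, and 2 of 7 downward (NRG1 and EPGN), against 16.1%. The EGF and EPGN separations lay within a range of 0.15 log2 units over the 4 H1299 arrays, and that of EREG within 0.38. The knockdown difference was then compared between the lines. HBEGF differed by -1.46 ± 0.59 (H1299 minus H2009) and EREG by -0.74 ± 0.24. Neither passed (adjusted p = 0.922 and 0.895, with 0% of all genes called), although both had an unadjusted p under 0.05 (0.0410 and 0.0171), as had 5.17% of all genes. EREG read only 4.34 to 4.72 in H1299, where RMA compresses differences. The part of this in its line difference was not tested. TGFA differed by -0.58 ± 0.47, NRG1 by -0.58 ± 0.30 and EGF by 0.26 ± 0.34. All of these values moved with single arrays. HBEGF was -1.94 without GFP and -0.99 without LUC in H2009, and EREG was -0.91 and -0.56 in the same order. TGFA was -0.15 without PTK7-1 and -1.01 without PTK7-2 in H1299. NRG1 was -0.33 without PTK7-1 in H2009, and EGF was -0.10 without LUC in H2009.

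**Figure D2:**
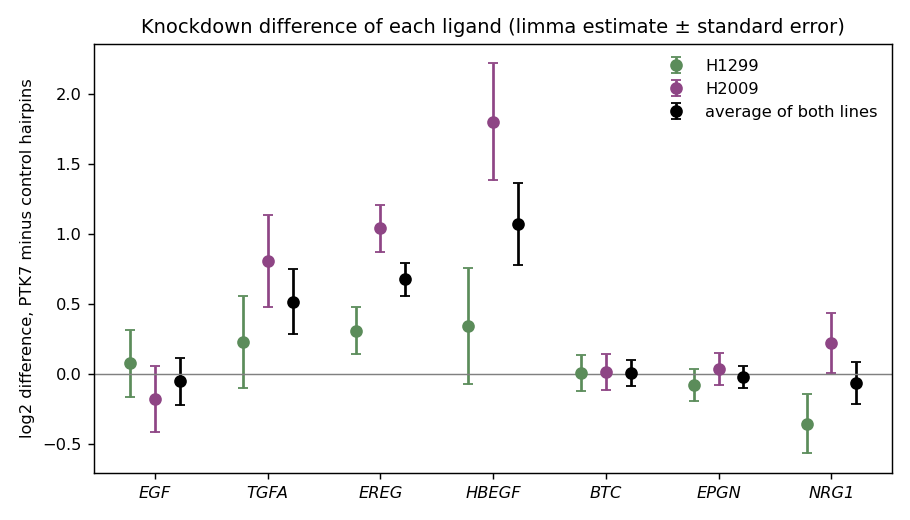
Log2 difference between PTK7 and control hairpins (vertical axis) for each ligand (horizontal axis) in H1299, in H2009 and averaged, with bars of 1 standard error of the limma fit. HBEGF (1.81), EREG (1.04) and TGFA (0.81) stand above 0 in H2009, while the H1299 estimates lie between -0.36 and 0.34.

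The lines were also compared hairpin by hairpin, as shown in the plot of deviations from the control mean. Both comparisons of a single PTK7 hairpin use the same control arrays, so their values are set side by side and are not independent. HBEGF stood at 1.02 ± 0.38 with PTK7-1 and at 1.13 ± 0.38 with PTK7-2 relative to both controls, in a fit of hairpin plus line. EREG stood at 0.75 ± 0.21 with PTK7-1 and 0.60 ± 0.21 with PTK7-2. TGFA stood at 0.25 ± 0.20 with PTK7-1 and 0.78 ± 0.20 with PTK7-2. None passed (lowest adjusted p = 0.158 with PTK7-1, where 1.23% of all genes were called, and 0.107 with PTK7-2, where 2.15% were).

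In the direct comparison of the PTK7 hairpins none of the 7 ligands passed, against 3.73% of all genes. TGFA differed by -0.52 ± 0.24 (PTK7-1 minus PTK7-2, adjusted p = 0.299), being lower with PTK7-1 in each line. It was -0.11 without the PTK7-1 array of H1299 and -0.94 without that of H2009. HBEGF differed by -0.11 ± 0.43 and EREG by 0.15 ± 0.24, with opposite signs in the lines for both, since PTK7-1 was the higher of the pair in H2009 and PTK7-2 in H1299. An interval of this width leaves room for a difference of either sign.

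The control hairpins were compared in the same way. HBEGF was higher with GFP than with LUC by 0.94 ± 0.43, and TGFA by 0.53 ± 0.24, each in both lines. With 1 array left out the HBEGF value ran from 0.45 to 1.44 and the TGFA value from 0.22 to 0.84. None of the 7 ligands passed (adjusted p = 1.00 for each, with 0% of all genes called). For HBEGF in H1299 the control arrays lay 0.46 above and below their mean, and the PTK7 arrays lay 0.04 and 0.65 above it. In H2009 the controls lay 0.48 above and below, and the PTK7 arrays 2.00 and 1.61 above.

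**Figure D3:**
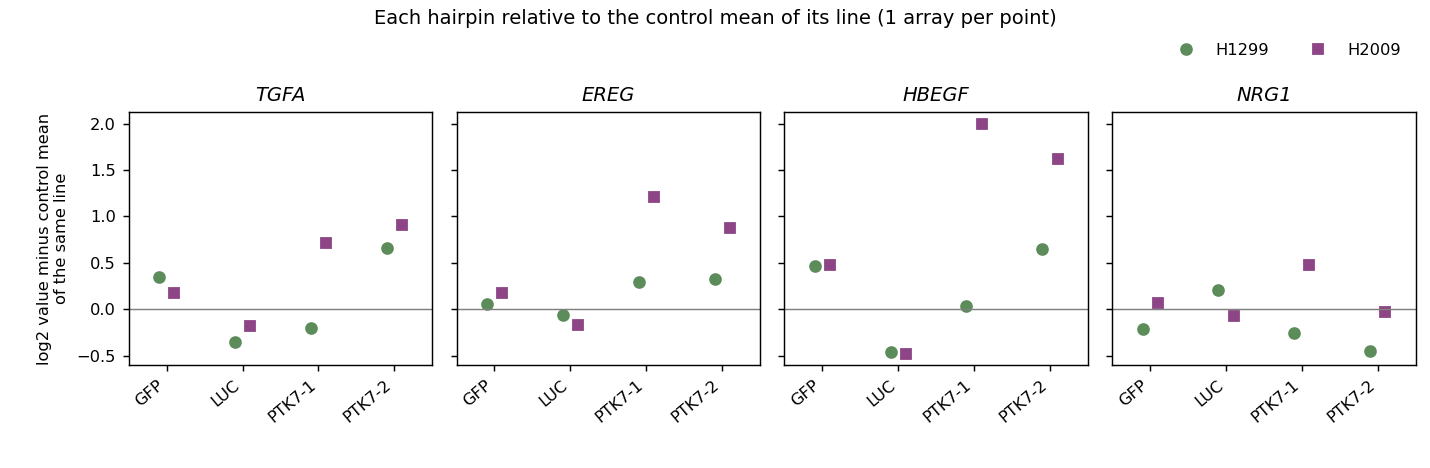
Log2 value minus the control mean of the same line (vertical axis) of TGFA, EREG, HBEGF and NRG1 for each hairpin (horizontal axis), 1 array per point, in H1299 (circles) and H2009 (squares). For HBEGF the GFP array lies above the LUC array by a similar amount in both lines, and the H2009 PTK7 arrays at 2.00 and 1.61 lie above every control array, while PTK7-1 in H1299 at 0.04 lies between the controls.

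The rest of the pathway was read from lists that group 74 further genes, of which 69 were measured, and the plot of pathway lists shows their differences. None of the 69 passed in any of the 3 knockdown comparisons (averaged, H1299, H2009), with a lowest adjusted p of 0.101. The shares of all genes called were 0%, 0.00543% and 0% in the same order. Of the receptors, EGFR stood at -0.36 ± 0.17 averaged over the lines, ERBB4 at 0.26 ± 0.14 and ERBB3 at -0.11 ± 0.15. EGFR, the receptor that most of these ligands share, read 8.36 (GFP) and 8.47 (LUC) under control hairpins and 8.18 (PTK7-1) and 7.71 (PTK7-2) under knockdown in H1299, and 8.25, 7.89, 8.08 and 7.55 in H2009. Both PTK7 arrays were thus below both controls in H1299, and in H2009 the groups overlapped. Under control hairpins 2 of 4 receptors passed, against 24.8% of all genes, both lower in H1299, ERBB3 at -2.81 (adjusted p = 0.000134) and ERBB2 at -1.91 (adjusted p = 0.00346). The EGFR line difference was 0.34 (adjusted p = 0.374).

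Among 13 genes for release of the ligands, 10 had averaged differences above 0, against 55.8% of all genes. The median of the 13 was 0.13, against 0.02 over all genes. The metalloprotease gene ADAM8 stood at 0.49 ± 0.10, and in H2009 it read 6.75 (GFP) and 6.45 (LUC) under control hairpins and 7.68 (PTK7-1) and 7.83 (PTK7-2) under knockdown. In H1299 both its PTK7 arrays (5.20 and 5.26) lay below both control arrays (5.47 and 5.33), so its differences were 1.16 in H2009 and -0.17 in H1299. FURIN, which encodes a convertase that activates ADAM proteases, stood at 0.62 ± 0.17, and RHBDF1, which encodes an inactive rhomboid that helps mature ADAM17, at 0.34 ± 0.10. The main sheddase genes ADAM17 and ADAM10 stood at -0.11 ± 0.17 and 0.02 ± 0.09. Under control hairpins 5 of these 13 genes passed, against 24.8% of all genes, all lower in H1299.

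Of 11 measured adaptor and RAS-ERK genes, 7 stood above 0, against 55.8% of all genes. Those above 0 were led by the phosphatase gene PTPN11 at 0.38 ± 0.12 and the MEK genes MAP2K1 at 0.29 ± 0.09 and MAP2K2 at 0.22 ± 0.09. Of 16 feedback inhibitors, 8 stood above 0 and 8 below, led by SPRY4, an inhibitor of RAS signalling, at 0.74 ± 0.20, SOCS5, an adaptor for receptor turnover, at -0.39 ± 0.11 and SPRED1 at 0.46 ± 0.14. SPRY4 read 5.20 (GFP) and 4.89 (LUC) under control hairpins and 6.44 (PTK7-1) and 6.73 (PTK7-2) under knockdown in H2009, and the H2009 groups did not overlap. In H1299 they overlapped, at 8.82, 7.97, 8.18 and 8.49 in that order, and the SPRY4 difference was 1.54 in H2009 and -0.06 in H1299.

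Of 12 transcription factor genes and other early genes that respond to ERK, 8 stood above 0, against 55.8% of all genes. The median of the 12 was 0.15, against 0.02 over all genes. ETV4, which encodes an ETS factor, stood at 0.88 ± 0.23, at 1.78 in H2009 and -0.03 in H1299. FOSL1 and FOSL2, which encode AP-1 subunits, stood at 0.38 ± 0.15 and 0.26 ± 0.15, FOSL1 being at 0.83 in H2009 and -0.06 in H1299. FOS itself stood at -0.51 ± 0.43, at -0.94 in H2009 and -0.08 in H1299. In H2009, 8 of the 12 stood above 0, against 56.1% of all genes. The 4 below 0 there were FOS, FOSB (-0.60), EGR1 (-0.50) and JUNB (-0.29). Of 10 YAP and TAZ targets, 9 stood above 0, against 55.8% of all genes, with a median of 0.16. ANKRD1 stood at 2.25 ± 0.24, AMOTL2 at 0.51 ± 0.14 and AJUBA at 0.49 ± 0.20. AXL, the target below 0, stood at -0.72 ± 0.43. It read lower with PTK7-2 only, at 9.68 in H1299 and 8.10 in H2009. With PTK7-1 (11.16 and 9.75) it read close to the controls (11.10 and 11.23 in H1299, 9.70 and 9.53 in H2009). PTK7-1 minus PTK7-2 was 1.57 for AXL (limma adjusted p = 0.00628), in a comparison where 3.73% of all genes passed. In H1299 and H2009 the differences were 3.05 and 1.45 for ANKRD1, 0.83 and 0.19 for AMOTL2, and 0.80 and 0.19 for AJUBA. The remaining neuregulin genes, NRG2, NRG3 and NRG4, had averaged differences of -0.03 ± 0.09, 0.08 ± 0.09 and -0.17 ± 0.13. NRG4 was lower and NRG2 higher in H1299 under control hairpins, at -2.55 and 1.22 (adjusted p = 0.000103 and 0.000772).

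**Figure D4:**
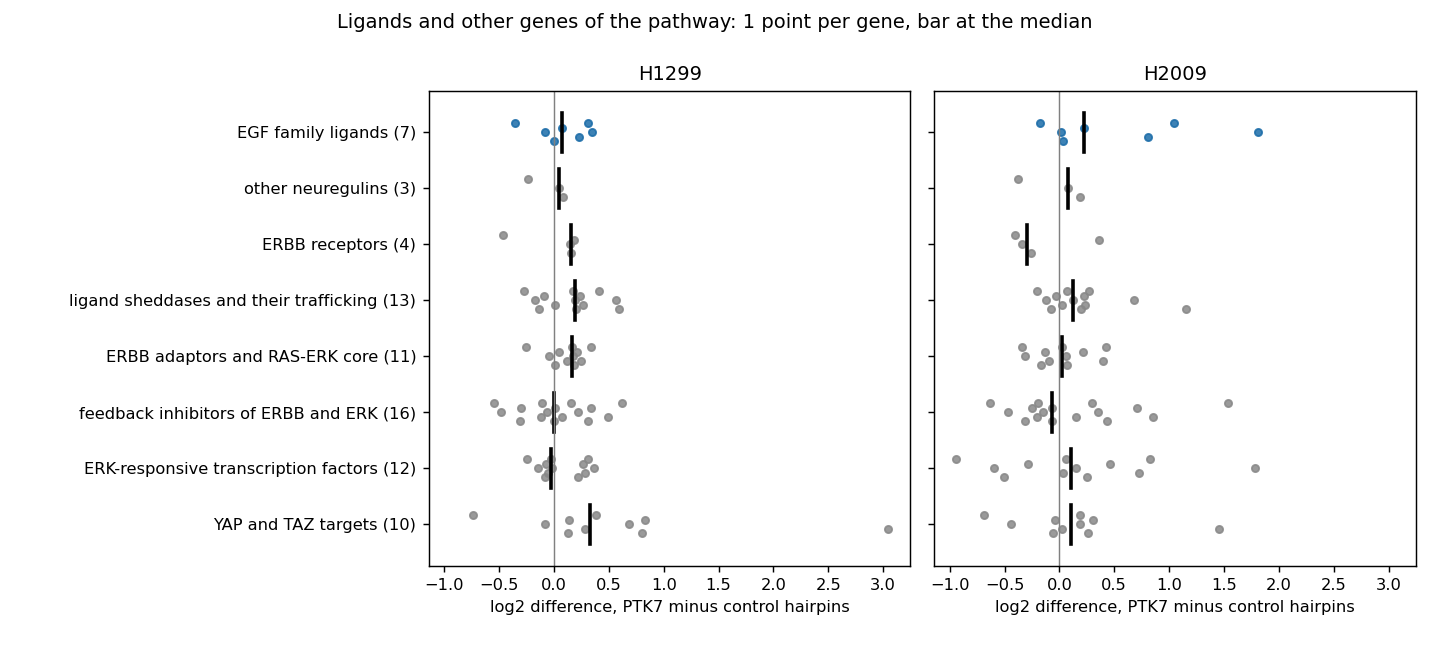
Log2 difference between PTK7 and control hairpins (horizontal axis) in H1299 and H2009 for the ligands (blue) and the other lists of the pathway (grey), 1 point per gene, number of genes in brackets and a black bar at each median. The ligand median was 0.08 in H1299 and 0.22 in H2009; the ligands at the right in H2009 are HBEGF, EREG and TGFA.

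Markers of other cell types were read in the same comparison. In H2009 all 4 measured leukocyte markers had differences above 0, as had all 5 endothelial markers and 4 of 5 fibroblast markers, against 56.1% of all genes. The mean level of the leukocyte markers was 4.66 to 4.69 on control arrays and 4.72 to 4.97 on PTK7 arrays. For the endothelial markers it was 4.17 to 4.18 and 4.31 to 4.36, and for the fibroblast markers 4.34 to 4.35 and 4.39 to 4.41. Their defining genes PTPRC, VWF and DCN differed by 0.10, 0.06 and 0.06 in H2009. Of the 4 mesenchymal markers, CDH2 stood at 0.86, VIM at 0.52, ZEB1 at 0.34 and FN1 at -0.04 in H2009. Of the 5 lung lineage genes, NKX2-1 stood at -0.83 and NAPSA at -0.43, and SFTPB, SFTPC and SFTA2 at 0.15, 0.20 and 0.11. Of the 6 epithelial markers, 3 stood above 0 in H2009. Over all genes the median H2009 difference was 0.03. In H1299, 1 of 4 leukocyte, 4 of 5 endothelial and 2 of 5 fibroblast markers stood above 0, against 49.45% of all genes. The part of these shifts in the ligand values was not tested.

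For the ligands that varied by at least 1 log2 unit among the 4 arrays of a line, the genes most alike in pattern were sought over the 8 arrays, by Pearson r of values from which each line's mean was subtracted. They were taken from 9201 genes with means above the median gene. The arrays share hairpins between the lines and a common normalization, and these r values describe these arrays only. HBEGF was most like GRPEL2 (r = 0.972), PTPRE (0.969) and SPX (0.963). EREG was most like NPC2 (0.986), EPHA2 (0.982) and QSOX2 (0.980), and TGFA was most like MAPKAPK3 (0.983), RNF166 (0.977) and FOXD1 (0.968). The EREG values spanned 0.38 log2 units in H1299 and 1.38 in H2009, so the r values of EREG rest mostly on the H2009 arrays. An r of at least 0.9 was reached by 56 genes for HBEGF, 54 for EREG and 71 for TGFA. The numbers that other genes reach were not computed, so these counts have no background.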

How the data were processed

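The authors deposited log2 expression values per probe set, which the submitters' processing notes credit to RMA and R 2.14.0. Of 32321 probe sets, 19158 had 1 gene symbol in the annotation, 1388 had several and 11775 were unlisted. The brightest probe set of each gene was kept, leaving 18404 genes. Comparisons used limma 3.58.1 (R 4.3.3) on all genes and all 8 arrays, with 1 mean per group, moderated variances and Benjamini-Hochberg adjusted p-values. Single hairpins were compared in a model with terms for hairpin and for line. Values after ± are standard errors from limma, or SD where so marked. The scripts were tested on simulated data. The labels give both lines the same hairpins, and deviations from the group means correlated between the lines (r = 0.230 for controls and 0.407 for PTK7 hairpins), so a block for hairpin was fitted as well. Further alternatives changed the normalization, the filter, the choice of probe set and the variance prior, or left out 1 array. The members and lists were chosen with earlier results of these data known. Named genes are all ligands, PTK7, up to 3 per list by unadjusted p in the averaged comparison, and the 3 genes most alike in pattern. ERBB2, ADAM17, ADAM10, FOS, FOSB, EGR1, JUNB, AXL and the marker genes were named in addition, after their values were seen. The number of arrays limits the precision. Plots were made in Python 3.11.15 with matplotlib 3.10.9.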

Additional observations from a re-analysis of the deposited data

How the results depend on the processing

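The positive knockdown differences of HBEGF, EREG and TGFA in H2009 and averaged over the lines kept their sign under every alternative run, and over the arrays left out in turn their averaged values ran from 0.83 to 1.31, 0.59 to 0.76 and 0.30 to 0.73. With the replicate block (hairpin), 1 ligand, HBEGF, passed in the averaged comparison, and 149 genes passed there, 4 in H1299 and 1 for the difference between the lines, against 0, 1 and 0 without it. The block also moved the line difference of TGFA past the threshold, and changed no other ligand's call. In the averaged comparison 3 genes passed with a trended prior, 2 with an additive fit, 226 for PTK7-1 alone and 395 for PTK7-2 alone. The difference between the lines had 1 gene with a trended prior and 1 with hairpin as a random effect. In H1299 0 genes passed with cyclic loess, without the dimmest 40% of genes, or with that line fitted alone. Testing every probe set left 298 passing between PTK7-1 and PTK7-2, against 686.

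Values near 0 changed sign. BTC averaged turned to -0.032 with quantile normalization, -0.033 with cyclic loess and -0.038 for PTK7-1 alone, BTC in H2009 to -0.068 and -0.082 with these normalizations, BTC in H1299 to -0.0062 with median centring, and EPGN in H2009 to -0.0032 with cyclic loess. NRG1 between PTK7-1 and PTK7-2 turned to -0.024 with the mean of its probe sets and -0.40 with the other probe set, and between GFP and LUC to 0.0012 and 0.14. Averaged, NRG1 turned to 0.11 for PTK7-1 alone and EGF to 0.019 for PTK7-2 alone. The causes of these shifts were not tested.

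Leaving out 1 array at a time gave 0 to 5 genes passing averaged, 0 to 8 in H1299, 0 to 3 for the difference between the lines, 2196 to 5298 between the lines under control hairpins (at most 2970 without any 1 of the control arrays, lowest without LUC in H2009) and 0 to 943 between the PTK7 hairpins (0 without PTK7-1 in H1299, 92 to 381 without any other array but PTK7-2 in H2009). Averaged knockdown differences ran from -0.23 to 0.13 for EGF, -0.043 to 0.060 for BTC, -0.049 to 0.0034 for EPGN and -0.19 to 0.058 for NRG1. In H1299 they ran from -0.20 to 0.65 for TGFA, -0.12 to 0.81 for HBEGF, -0.57 to -0.15 for NRG1 and -0.10 to 0.11 for BTC. In H2009 they ran from -0.54 to 0.18 for EGF, -0.047 to 0.072 for BTC, -0.017 to 0.086 for EPGN and -0.029 to 0.47 for NRG1. The difference between the lines ran from -0.10 to 0.62 for EGF, -1.01 to -0.15 for TGFA and -0.83 to -0.33 for NRG1. For HBEGF it ran from -1.94 to -0.99 and for EREG from -0.91 to -0.56. Line differences under control hairpins ran from -0.13 to 0.020 for BTC and -0.0015 to 0.10 for EPGN. Between PTK7-1 and PTK7-2, EGF ran from -0.38 to 0.091, EREG from -0.22 to 0.51, HBEGF from -0.93 to 0.71, TGFA from -0.94 to -0.11 and NRG1 from 0.051 to 0.64. Between GFP and LUC, EGF ran from -0.67 to 0.0064, EREG from -0.090 to 0.55 and NRG1 from -0.52 to 0.24.

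With 1 array per hairpin and line, the effect of a hairpin within a line cannot be told apart from array variation. At unadjusted p under 0.05, 1819 genes stood out averaged, 1468 in H2009, 951 for the difference between the lines and 672 between the control hairpins, where 0 passed limma's adjusted threshold. Differences of dim probe sets are compressed by RMA, such as those of EPGN and BTC, and of EREG and EGF in H1299.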

Other observations

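In the RefSeq gene table (GRCh38.p14) EPGN, EREG, AREG and BTC follow each other on chromosome 4 with no other protein-coding gene between them, MTHFD2L lying before EPGN and PARM1 after BTC. The measured ligands of this row differed in level between the lines to very unequal degrees: EREG by -5.03 (H1299 minus H2009, under control hairpins), against 0.05 for EPGN and -0.06 for BTC. EPGN (2.64 to 2.80) and BTC (4.26 to 4.48) read low on all 8 arrays, and whether they were expressed was not tested. AREG was not analysed. The flanking genes were read after their position was seen. MTHFD2L read 6.34 with GFP and 5.94 with LUC in H1299, and 6.23 and 6.18 in H2009, and PARM1 read 4.38 and 4.62 in H1299, and 4.28 and 4.17 in H2009. Their line differences were -0.06 ± 0.22 for MTHFD2L and 0.28 ± 0.18 for PARM1, and neither passed (limma adjusted p = 0.888 and 0.323).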
